A study of Mus musculus with 12 samples.

Results

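The comparison set sarcomas that carried a catalytically deficient Vnn1 against sarcomas that carried no added Vnn1. Its members are the 4 tumors labelled Vd Ras (VdR) and the 4 labelled Ras (R), chosen by their titles, 8 of the 12 tumors measured, and the genes compared are the 16573 that passed a filter on low values. The other 4 tumors, labelled Vnn Ras (VR), carried intact Vnn1 and serve here only to show where VdR tumors stood apart from them as well. All tumors came from J2A, 1 line of myofibroblasts from C57BL/6 mice deficient for the p16, p19 and Vnn1 genes, so the R controls share those deletions with the other groups. Every group also carried human oncogenic H-RasV12, fused to GFP and placed behind an internal ribosome entry site in a retroviral vector. R cells had no Vnn1 in that vector, whereas VdR cells had the Vnn1 mutant called dCr, and VR cells intact Vnn1, ahead of that site under a cytomegalovirus promoter. For each tumor 2000000 cells were grafted under the back skin of a nude mouse, and the tumor was taken between 2 and 3 weeks later according to the labels, whereas the methods give 1 fixed day at the end of that range. The hosts were female nude mice, which lack most T cells but keep macrophages, natural killer cells, vessels and their own Vnn1 gene. No separate transduction per tumor was described, so tumors within a group are repeated grafts of 1 line, and p-values measure the spread between these tumors. The labels' extraction text speaks of sorted cells, whereas the methods describe RNA of tumors, and which of these was measured was not settled by the sources used here.

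Vnn1 is a pantetheinase anchored at the cell surface. It splits pantetheine, a breakdown product of coenzyme A, into pantothenate (vitamin B5), from which cells can make coenzyme A again, and cysteamine, a small thiol. Coenzyme A carries the acyl groups that mitochondria burn, and cysteamine acts on the thiol balance of the cell. The question of the comparison is which gene programs go with a Vnn1 protein that lacks this activity. Expression is given as log2 values, on which a difference of 1 is a doubling, and each list of 4 values below follows tumors 1, 2, 4 and 5 of its group.

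The Vnn1 transcript separated the groups as their labels say. Vnn1 had log2 values of 5.70, 5.53, 5.75 and 5.83 in R tumors and 11.37, 11.49, 11.66 and 11.73 in VdR tumors. The groups did not overlap, and the log2 difference was 5.86 (SE 0.14; two-sided exact permutation test, p = 0.0286, the smallest p that 4 tumors against 4 allow; limma, adjusted p = 2.7e-10). Values in R tumors were near the filter value of 5.38, so the difference is a lower bound and no fold is given. The value does not tell the deficient transcript from the intact one, nor the vector's from the host's. Cdkn2a, the locus of p16 and p19, lay between 7.80 and 8.06 in all 12 tumors and its probeset does not check the deletion. Hras was not analysed here. Array medians of all probesets ranged from 6.66 to 6.77 over the 12 tumors, with R and VdR arrays between 6.68 and 6.75.

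Of the 16573 genes tested, 1555 were called between VdR and R tumors, which is 9.38% (limma, adjusted p under 0.05). Of these, 1090 were higher in VdR tumors (6.58% of all genes) and 465 lower (2.81%). The 4 VdR values all lay above the 4 R values in 1612 genes (9.73%) and all below in 746 (4.5%). The median log2 difference of all genes was 0.0038. An unadjusted p under 0.05 (limma) was reached by 3836 of the 16573 genes. Of the called genes, 496 (2.99% of all) differed by 1.5-fold or more, 378 upward (2.28%) and 118 downward (0.712%). The split between directions moved with the scaling, from 1090 higher and 465 lower as deposited to 862 and 689 after cyclic loess and to 702 and 997 after centring each array on the median of its genes with 1 symbol, a choice made after the data were seen that shifted the median of all genes by -0.0714. The number called was 972 and 962 without R tumor 1 or 4 and 961 without VdR tumor 2, and the number lower was 259, 248, 287 and 277 without R tumor 1 or 4 or VdR tumor 1 or 2.

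After Vnn1, the 14 largest increases among called genes whose groups did not overlap were in Tbx20, Cbr2, Rgs18, F630028O10Rik, Sfrp2, Itgam, Cldn1, Rcan2, F13a1, Siglec1, Ccl12, Ltc4s, Tlr7 and Clec4a3, with log2 differences from 1.63 to 2.13. The 15 largest decreases were in Ano1, Kcnq5, Hoxd10, Adgrg1, Npr3, Fam78b, Bmp2, Cacna1h, Pkp1, Gal3st3, Gcnt4, Slc7a11, Itga2, Hoxc10 and Myo1d, with log2 differences from -2.61 to -1.23. Of the genes not described further below, Cbr2, a carbonyl reductase, rose by 2.08, Rgs18, a regulator of G protein signalling in blood cells, by 1.86, and Rcan2, an inhibitor of calcineurin, by 1.72 (adjusted p = 0.000545, 0.000788 and 0.000274). F13a1, the factor XIII A chain of macrophages and platelets, rose by 1.70 and Ltc4s, leukotriene C4 synthase, by 1.65 (adjusted p = 0.0072 and 0.000572). In the other direction Adgrg1, an adhesion G protein-coupled receptor, had a log2 difference of -1.91 and Npr3, the clearance receptor of natriuretic peptides, one of -1.69 (adjusted p = 0.00133 and 0.00326). Gcnt4, a glycosyltransferase, had -1.32, Myo1d, an unconventional myosin, -1.23, and Fam78b -1.68 (adjusted p = 0.00182, 0.00523 and 0.00197).

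**Figure D1:**
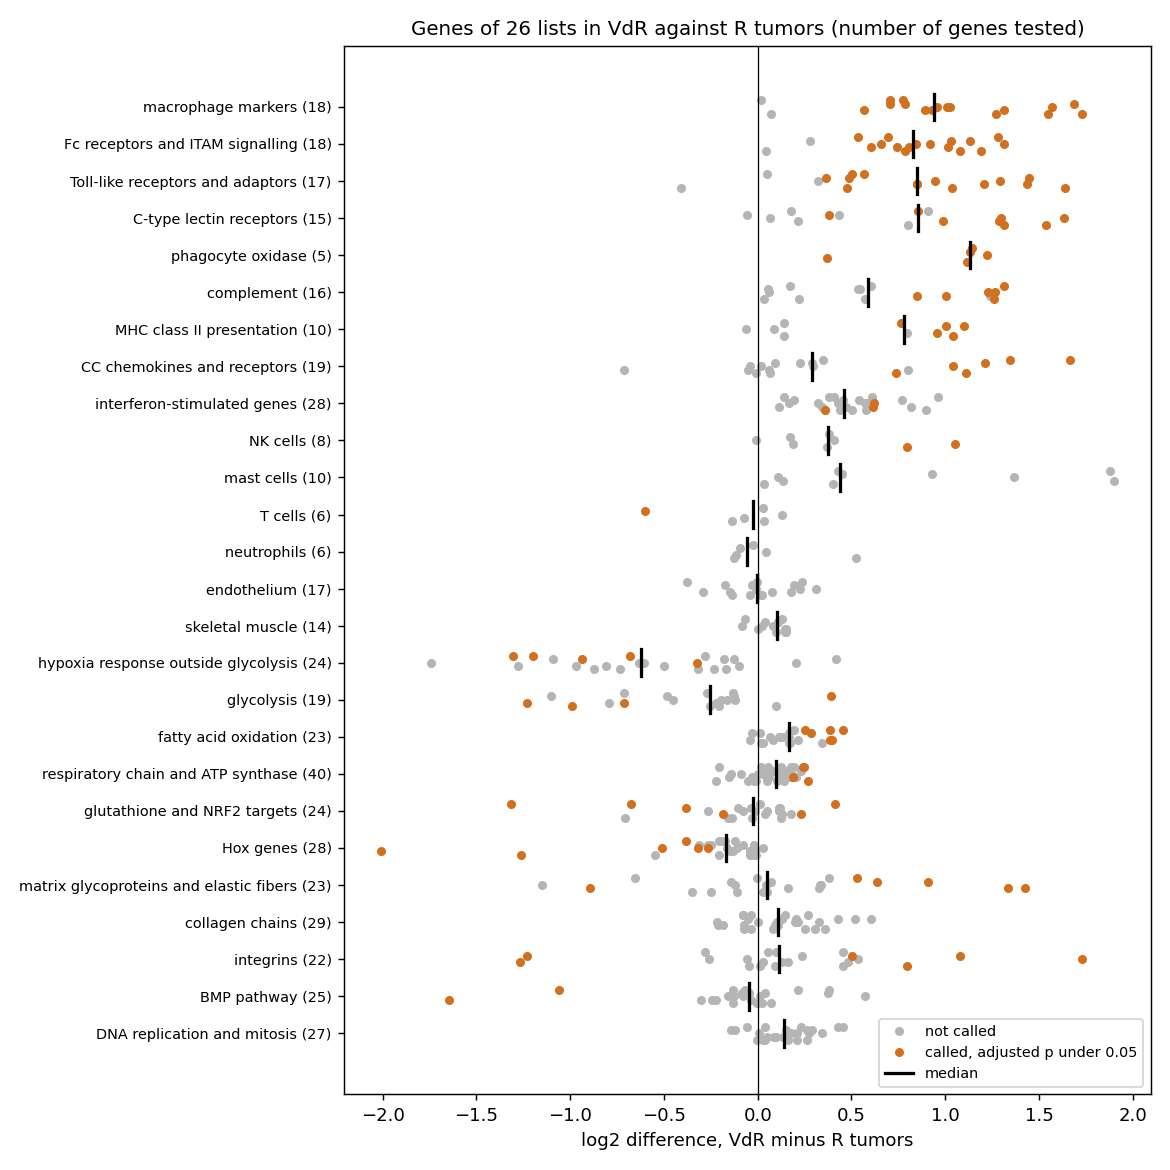
Log2 difference of VdR minus R tumors (horizontal axis) for the tested genes of 26 gene lists, 1 point per gene and 1 row per list with the number of genes tested in brackets. Orange points are called (limma, adjusted p under 0.05), grey points are not, and the black bar is the list's median, which was 0.94 for macrophage markers, -0.62 for hypoxia response genes and -0.0049 for endothelium.

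Most macrophage markers were higher in VdR tumors. Of 18 macrophage markers, all tested, 16 rose (6.58% of all genes did) and none fell, with a median log2 difference of 0.94 against 0.0038 over all genes, and those 16 did not overlap between groups. Adgre1, the F4/80 surface antigen of mouse macrophages, had 9.15, 9.54, 8.97 and 9.24 in R tumors and 10.76, 10.86, 10.85 and 10.60 in VdR tumors. Csf1r, the receptor through which the ligands Csf1 and Il34 sustain macrophages, had 10.13, 10.43, 10.16 and 10.34 in R tumors and 11.39, 11.68, 11.79 and 11.45 in VdR tumors. In both genes every VdR tumor lay above every R tumor. The log2 differences were 1.55 (SE 0.11, adjusted p = 4.31e-05) and 1.31 (SE 0.10, adjusted p = 4.31e-05). The summed linear level of the 18 markers reached 12902 to 16923 across the R tumors, 26451 to 31296 across the VdR tumors and 25411 to 28225 across the VR tumors, so VdR and VR tumors overlapped on it. In bulk tumors more cells of a type and more RNA per cell cannot be told apart, and the share of macrophages in the results below was not tested.

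Itgam, the αM chain of the integrin CD11b on myeloid cells, had 7.87, 8.31, 7.38 and 7.58 in R tumors and 9.41, 9.59, 9.82 and 9.24 in VdR tumors. Mrc1, the mannose receptor CD206 of tissue macrophages, had 9.63, 10.02, 9.15 and 9.54 in R tumors and 11.18, 11.55, 11.09 and 10.80 in VdR tumors. Neither gene overlapped between groups, and the log2 differences were 1.73 (SE 0.18, adjusted p = 0.000157) and 1.57 (SE 0.18, adjusted p = 0.000274). Siglec1, a sialic acid receptor of macrophages, and Cx3cr1, the fractalkine receptor, rose by 1.68 and 1.27 (adjusted p = 0.00587 and 0.000134). Cd163, a haemoglobin scavenger receptor, had a log2 difference of 0.71 (adjusted p = 0.0389), and its call was lost in 6 of 8 fits without 1 tumor, those without any R tumor or VdR tumor 1 or 4, at adjusted p up to 0.0881.

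The promoters of Itgam and Mrc1 are shown because both genes rose and both hold the letters GAGGAAG (or CTTCCTC on the other strand), the core read by PU.1, a transcription factor of myeloid cells. They are RefSeq windows of 300 bases on GRCm38.p6 around the start of transcription, at chr7:128062390-128062689 for Itgam and chr2:14229164-14229463 for Mrc1, both on the plus strand, with these letters in capitals.
Itgam: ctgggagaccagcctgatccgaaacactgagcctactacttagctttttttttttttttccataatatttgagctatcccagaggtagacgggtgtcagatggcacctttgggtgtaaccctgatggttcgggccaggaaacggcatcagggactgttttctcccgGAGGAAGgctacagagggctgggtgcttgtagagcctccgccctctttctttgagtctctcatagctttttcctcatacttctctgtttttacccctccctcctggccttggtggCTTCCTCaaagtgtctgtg
Mrc1: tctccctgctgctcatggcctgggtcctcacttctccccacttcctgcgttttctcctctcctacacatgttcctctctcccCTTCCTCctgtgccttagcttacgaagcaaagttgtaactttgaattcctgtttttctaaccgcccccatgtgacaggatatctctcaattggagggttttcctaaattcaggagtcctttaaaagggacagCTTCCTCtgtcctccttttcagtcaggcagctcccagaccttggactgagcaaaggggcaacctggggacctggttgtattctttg
GAGGAAG was found in 13.6% of 32851 such windows, in 11 of 27 windows of the macrophage and Fc receptor genes that rose (10 of 24 genes) and in 3 of 4 windows of those that were not called. A match of letters is a description and shows no binding.

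Signalling genes of myeloid cells moved in the same direction as their markers. The median log2 difference of 18 genes of Fc receptors and ITAM signalling was 0.83. Of these genes 16 rose (88.9%, against 6.58% of all genes) and none fell. Among them were the adaptor genes Tyrobp (1.19, adjusted p = 0.000357) and Fcer1g (1.28, adjusted p = 0.00482), the lipid receptor gene Trem2 (1.01, adjusted p = 4.74e-05), the phosphatase gene Inpp5d (1.08, adjusted p = 0.000131) and Vav1, an exchange factor of blood cells (1.13, adjusted p = 0.000145). Of 17 Toll-like receptor genes and adaptors, 14 rose (82.4%) and none fell, with a median of 0.85. Tlr7, an endosomal receptor of single-stranded RNA, had 6.79, 7.35, 6.46 and 7.11 in R tumors and 8.51, 8.68, 8.61 and 8.47 in VdR tumors. The groups did not overlap, with a log2 difference of 1.64 (SE 0.17, adjusted p = 0.000141). Tlr13 and Tlr8, further endosomal RNA sensors, rose by 1.45 and 1.43, and Unc93b1, which carries these receptors to endosomes, rose by 0.85 (adjusted p = 0.00103, 0.000121 and 0.000167). The surface receptor gene Tlr2 rose by 0.85 (adjusted p = 0.00264).

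All 5 tested genes of the phagocyte oxidase, the complex that makes superoxide, rose, with a median of 1.13. Ncf1, its organiser p47phox, had 7.99, 8.29, 7.92 and 8.12 in R tumors and 9.37, 9.29, 9.41 and 9.14 in VdR tumors. No VdR tumor reached down to the R tumors, and the log2 difference was 1.22 (SE 0.10, adjusted p = 6.45e-05). Cybb, the catalytic subunit, and Rac2, its GTPase, rose by 1.12 and 1.14 (adjusted p = 0.00718 and 0.00038). Of 15 C-type lectin receptor genes tested of 17 listed, 8 rose (53.3%, against 6.58% of all genes) and none fell. Their median was 0.86. The largest differences among them were in Clec4a3 (1.63, adjusted p = 0.000185) and Clec4a1 (1.54, adjusted p = 0.000802). Of 16 lysosomal genes 7 rose (43.8%), among them the proteases Ctss (1.10, adjusted p = 0.000141) and Lgmn (0.66, adjusted p = 0.000133). Only 4 rose without VdR tumor 2 or without VdR tumor 4.

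Genes used to type macrophage activation were called on both sides. Of 14 tested genes of alternative activation, 6 rose (42.9%, against 6.58% of all genes), none fell and the median was 0.38. The folate receptor gene Folr2 rose by 1.59, the TAM receptor ligand gene Gas6 by 1.26, the scavenger receptor gene Stab1 by 1.25 and the apolipoprotein gene Apoe by 0.57 (adjusted p = 0.00115, 0.00173, 0.00153 and 0.00146). Lyve1, a hyaluronan receptor of lymphatic endothelium and of some tissue macrophages, had 9.27, 10.58, 8.40 and 7.90 in R tumors and 11.30, 11.69, 10.55 and 10.86 in VdR tumors. One R tumor, number 2, lay just above the lowest VdR tumor, and the log2 difference of 2.06 (adjusted p = 0.0158) was not called without R tumor 4 or VdR tumor 2, at adjusted p up to 0.0562. Arg1, the arginase gene often used as a marker of alternative activation, had -0.32 (adjusted p = 0.526). Of 16 genes of classical activation 5 rose (31.2%), none fell and 11 were not called, with a median of 0.17. Among the higher ones were Irf5, a transcription factor of inflammatory macrophages (0.89, adjusted p = 0.000998), and the inflammasome gene Nlrp3 (0.55, adjusted p = 0.0121).

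**Figure D2:**
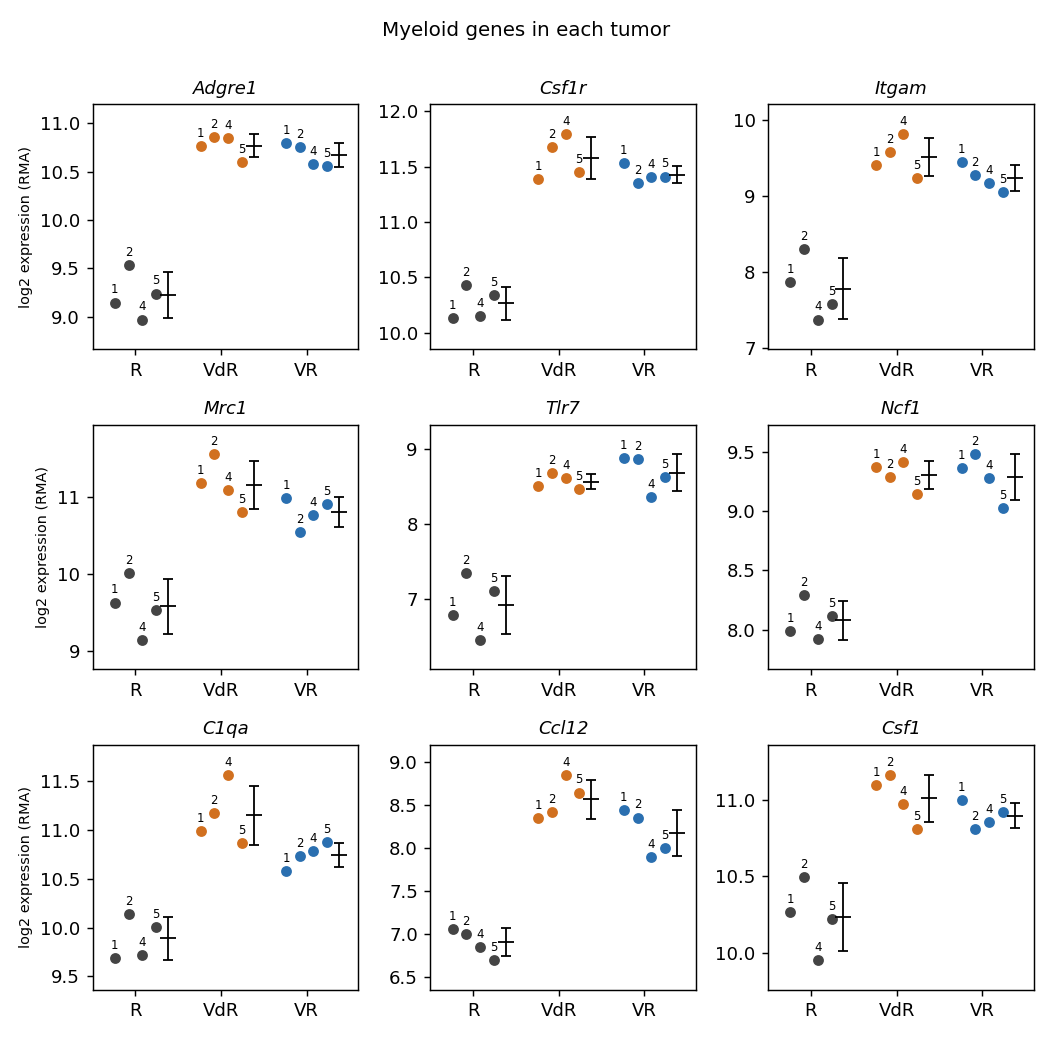
Log2 expression (vertical axis) of 9 myeloid genes in the 4 R, 4 VdR and 4 VR tumors, with 1 point per tumor labelled by its number and the group mean and SD (n = 4) to its right. In each panel the 4 VdR tumors lie above the 4 R tumors, for example at 10.6 or higher against 9.54 or lower for Adgre1.

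Some of the genes for signals that recruit and feed monocytes rose. Ccl12, a chemokine that attracts monocytes through Ccr2, had 7.06, 7.0, 6.85 and 6.70 in R tumors and 8.34, 8.42, 8.86 and 8.65 in VdR tumors. Csf1, macrophage colony-stimulating factor itself, had 10.26, 10.49, 9.95 and 10.22 in R tumors and 11.09, 11.16, 10.97 and 10.81 in VdR tumors. Both were separated between groups, with log2 differences that came to 1.66 (SE 0.14, adjusted p = 6.45e-05) and 0.78 (SE 0.11, adjusted p = 0.000834). The related chemokine genes Ccl7, Ccl9 and Ccl2 rose by 1.11, 1.04 and 0.74 (adjusted p = 0.0112, 0.0101 and 0.00347). Among 19 CC chemokine and receptor genes 6 rose (31.6%, against 6.58% of all genes) and none fell, with a median of 0.29. The remaining higher genes were the receptor genes Ccr1 (1.21, adjusted p = 0.00823) and Ccr2. Ccr2 had a log2 difference of 1.35 (adjusted p = 0.0411), and its call was lost in 6 of 8 fits without 1 tumor, with R tumor 5 and VdR tumor 5 as the exceptions, at adjusted p up to 0.125. Of 13 genes of colony-stimulating factors and their receptors 5 rose (38.5%, against 6.58% of all genes). Only 2 rose without R tumor 4, VdR tumor 1 or VdR tumor 2, 3 without R tumor 1 or VdR tumor 4, and 8 without VdR tumor 5. Il34, the second ligand of Csf1r, had 0.39 (adjusted p = 0.0547) and was called without VdR tumor 5. The 12 CXC genes tested held 1 called in each direction. These were the chemokine gene Cxcl16 at 0.74 (adjusted p = 0.00477) and the receptor gene Cxcr4 at -0.86 (adjusted p = 0.0123).

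Complement genes made by macrophages were among the called genes. Of 16 tested, 6 rose (37.5%, against 6.58% of all genes) and none fell. The median was 0.59, and all 16 differences were above 0. C1qa, a chain of the recognition molecule C1q, had 9.69, 10.14, 9.71 and 10.01 in R tumors and 10.99, 11.17, 11.57 and 10.87 in VdR tumors. The groups did not overlap, and the log2 difference was 1.26 (SE 0.14, adjusted p = 0.00025). The other C1q chain genes C1qc and C1qb rose by 1.27 and 0.85, and the anaphylatoxin receptor genes C5ar1 and C3ar1 by 1.23 and 1.01 (adjusted p = 0.000167, 0.000295, 0.00106 and 0.00318). Cfp, the properdin gene, rose by 1.31 (adjusted p = 0.000863).

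Antigen presentation genes and interferon genes were partly called. Of 10 MHC class II presentation genes 5 rose (50%, against 6.58% of all genes) and none fell, with a median of 0.78. Only 3 rose without R tumor 1, 2 or 4 or VdR tumor 1, 2 or 4. H2-DMa, which loads peptides, and Ifi30, a lysosomal thiol reductase, had 1.01 and 0.76 (adjusted p = 0.0099 and 0.00102). Of 14 MHC class I presentation genes 3 rose (21.4%) and none fell, among them the immunoproteasome gene Psmb8 at 1.09 (adjusted p = 0.00387). All 28 interferon-stimulated genes had a difference above 0, with a median of 0.46, yet 3 of them rose (10.7%) and 25 were not called. Those 3 were Irf8 (0.62, adjusted p = 0.00836), a transcription factor of myeloid cells, Irf1 (0.36, adjusted p = 0.00423) and Ifi35 (0.61, adjusted p = 0.0482). The call of Ifi35 was lost without any 1 of the 8 tumors, at adjusted p up to 0.131, which left 2 genes of the list. Irf7, the master regulator of type I interferon, had 7.75, 7.30, 6.77 and 7.65 in R tumors and 9.33, 6.92, 8.49 and 8.0 in VdR tumors. Its VdR tumors ran over a range of more than 2 log2 units and overlapped the R tumors, with a log2 difference of 0.82 (adjusted p = 0.562).

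Markers of other host cells were mostly not called. Of 8 natural killer cell genes tested of 12 listed, 2 rose (25%, against 6.58% of all genes). These were Nkg7, a granule protein gene, at 0.80 (adjusted p = 0.00159) and Eomes, a transcription factor, at 1.05 (adjusted p = 0.0381). Ncr1, the receptor NKp46 that defines these cells, had 0.37 (adjusted p = 0.0876), was called without VdR tumor 5 and lay near the filter value of 5.38 in R tumors, where its mean was 5.46. The Eomes groups overlapped and its call was lost in 6 of 8 fits without 1 tumor, those without R tumor 1, 2 or 4 or VdR tumor 1, 2 or 5, at adjusted p up to 0.112. Of 6 T cell genes tested of 10 listed, Cd8a fell (log2 difference -0.60, adjusted p = 0.00106), from a mean of 6.79 to 6.19, and the others were not called. None of 10 mast cell genes was called, though all 10 differences were above 0, with a median of 0.44. Their values spread widely. Cpa3, the mast cell carboxypeptidase gene, had 7.44, 7.17, 6.80 and 9.07 in R tumors and 8.51, 10.51, 9.13 and 9.93 in VdR tumors, and its groups overlapped (log2 difference 1.90, adjusted p = 0.16). The lists of neutrophils (6 genes tested), endothelium (17), adipocytes (8), Schwann cells (5) and skeletal muscle (14) had no called gene, and the median over the endothelial genes was -0.0049. The skeletal muscle marker Acta1 varied widely within both groups. It lay at 10.45 or higher in R tumors 2 and 5 and VdR tumors 2 and 4. In R tumors 1 and 4 and VdR tumors 1 and 5 it lay at 8.28 or lower. The lack of a call therefore does not show equal muscle transcript levels between tumors. Whether this split bears on the other differences was not tested. At an unadjusted p under 0.05 (limma), 1 neutrophil and 1 endothelial gene passed, as did 3 of the mast cell genes. None of the adipocyte, Schwann cell or skeletal muscle genes did. Of the 8 natural killer cell genes 6 passed at this level, and 7 differences were above 0. Of 11 dendritic cell genes 1 rose after adjustment (9.09%, against 6.58% of all genes). At the unadjusted level 4 of the 11 passed, and 10 differences were above 0. Among all 16573 genes 3836 passed at the unadjusted level. Rgs5 was the only called gene of 9 pericyte genes and fell (log2 difference -0.95, adjusted p = 0.000606). Pkp1, a desmosome gene and the only called gene of 9 keratinocyte genes, fell (log2 difference -1.41, adjusted p = 0.00182).

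Genes induced by low oxygen tended to lower values in VdR tumors, and the size of this depended on single tumors. Of 24 hypoxia response genes outside glycolysis, 22 had a difference below 0, with a median of -0.62, while 5 fell (2.81% of all genes did), none rose and 19 were not called. Ankrd37, an ankyrin repeat gene induced by hypoxia, had 8.40, 7.67, 8.65 and 7.38 in R tumors and 6.73, 6.64, 6.94 and 7.01 in VdR tumors. Kdm3a, a histone demethylase gene induced by hypoxia, had 9.98, 9.65, 9.94 and 9.65 in R tumors and 8.79, 9.14, 9.37 and 9.19 in VdR tumors. These 2 did not overlap between groups and had log2 differences that came to -1.20 (SE 0.22, adjusted p = 0.00534) and -0.68 (SE 0.12, adjusted p = 0.00356).

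Bnip3, a mitophagy receptor gene, had 11.13, 10.62, 11.35 and 9.74 in R tumors and 8.84, 8.91, 10.48 and 9.40 in VdR tumors. R tumor 5 was the lowest R tumor and VdR tumor 4 the highest VdR tumor, so the groups overlapped, with a log2 difference of -1.30 (SE 0.37, adjusted p = 0.0479). Slc2a1, the glucose transporter GLUT1, had 12.65, 11.90, 12.77 and 11.63 in R tumors and 10.96, 10.85, 12.02 and 11.16 in VdR tumors. R tumors 2 and 5 both lay below VdR tumor 4 here, with a log2 difference of -0.99 (SE 0.28, adjusted p = 0.0417). Car9, carbonic anhydrase 9, had 9.48, 8.39, 9.35 and 6.73 in R tumors and 6.24, 6.18, 7.84 and 6.72 in VdR tumors, the widest spread among these genes. Its log2 difference of -1.74 (SE 0.52) was not called (adjusted p = 0.0546), but was without R tumor 5 or VdR tumor 4, with array weights, with arrays centred on either median and with the stricter filter.

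The list of 24 genes had 5 called lower in all, but 16 without R tumor 5 and 13 without VdR tumor 4, against 3 without R tumor 2 and 2 without R tumor 1 or 4 or VdR tumor 1, 2 or 5. With arrays centred on their genes with 1 symbol, 11 were called lower. The calls of Bnip3 and Slc2a1 were lost without R tumor 1 or 4 or VdR tumor 1, 2 or 5, and that of Bnip3 also without R tumor 2, at adjusted p up to 0.14. Ero1a, an oxidoreductase of protein folding, and Egln1, an oxygen-sensing prolyl hydroxylase, had -0.94 and -0.32 (adjusted p = 0.0417 and 0.0305) and were lost without the same 6 tumors as Bnip3. Adm, the adrenomedullin gene, and Pdk1, which holds back pyruvate dehydrogenase, were not called at -1.28 and -0.73 (adjusted p = 0.0545 and 0.134), though both were without R tumor 5 and Pdk1 also without VdR tumor 4.

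The promoters of 3 of these genes are shown for the letters ACGTG and GCGTG, or CACGT and CACGC on the other strand, which are the core read by the hypoxia-inducible factors. They are RefSeq windows on GRCm38.p6, at chr8:45999801-46000100 for Ankrd37 and chr7:138909457-138909756 for Bnip3, both on the minus strand, and chr4:119108495-119108794 for Slc2a1 on the plus strand, with the letters in capitals.
Ankrd37: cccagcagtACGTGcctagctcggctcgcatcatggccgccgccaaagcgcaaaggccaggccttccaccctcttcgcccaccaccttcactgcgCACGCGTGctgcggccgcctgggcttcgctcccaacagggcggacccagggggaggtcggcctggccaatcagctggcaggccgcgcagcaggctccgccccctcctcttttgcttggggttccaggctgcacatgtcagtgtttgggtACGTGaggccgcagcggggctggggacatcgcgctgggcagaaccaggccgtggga
Bnip3: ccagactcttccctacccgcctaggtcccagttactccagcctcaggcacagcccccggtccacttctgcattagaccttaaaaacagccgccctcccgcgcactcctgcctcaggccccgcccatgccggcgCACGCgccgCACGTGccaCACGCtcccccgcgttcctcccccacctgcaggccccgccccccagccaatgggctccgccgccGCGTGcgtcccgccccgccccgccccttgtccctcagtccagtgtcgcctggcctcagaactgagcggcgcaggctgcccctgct
Slc2a1: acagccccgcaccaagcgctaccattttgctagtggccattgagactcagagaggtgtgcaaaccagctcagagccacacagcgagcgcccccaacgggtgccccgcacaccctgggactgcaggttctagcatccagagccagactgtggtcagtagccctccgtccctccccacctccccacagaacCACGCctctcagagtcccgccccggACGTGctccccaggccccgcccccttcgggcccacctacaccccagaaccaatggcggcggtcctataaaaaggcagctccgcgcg
One or the other form was in 43.8% of 32851 windows, in 8 of 10 windows of the hypoxia and glycolysis genes that fell (8 of 8 genes) and in 35 of 45 windows of those that were not called (25 of 28 genes). The 2 forms can overlap each other in one stretch of letters, and a match shows no binding.

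**Figure D3:**
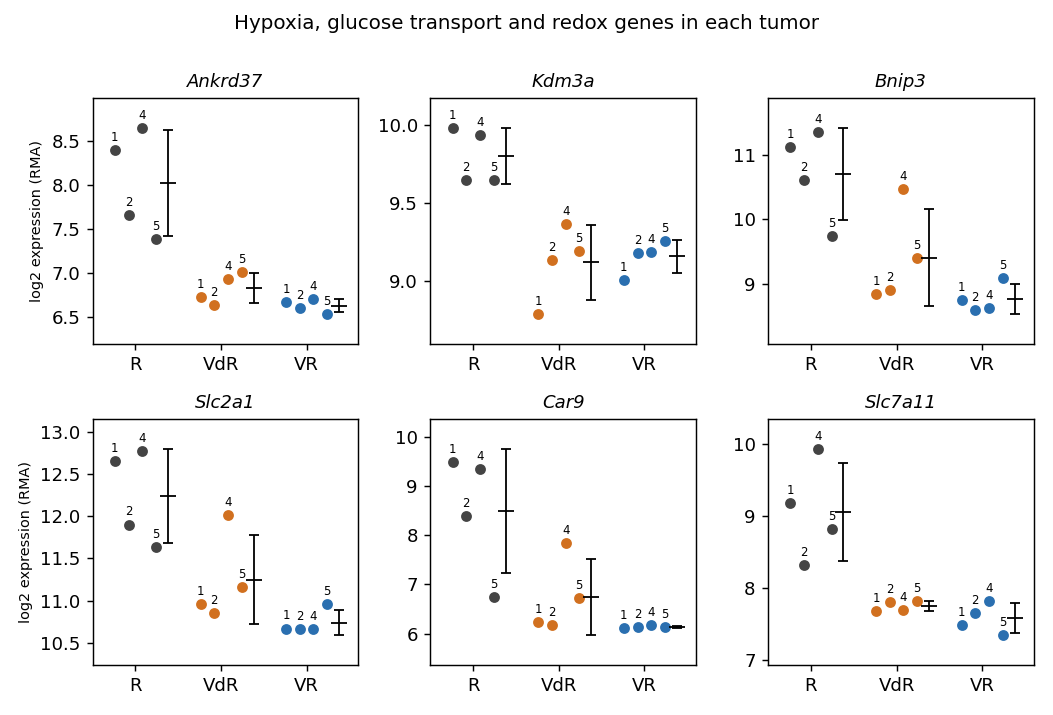
Log2 expression (vertical axis) of 5 hypoxia or glucose transport genes and of the cystine transporter gene Slc7a11 in each R, VdR and VR tumor, labelled by tumor number, with the group mean and SD (n = 4). Bnip3, Slc2a1 and Car9 overlap between R and VdR through VdR tumor 4, which lies above R tumor 5 in all 3 and above R tumor 2 in Slc2a1, while Ankrd37, Kdm3a and Slc7a11 do not.

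Most genes of glycolysis, a list of enzymes and transporters, were not called, but the share of lower genes exceeded that of all genes. Of 19 genes 3 fell (15.8%, against 2.81% of all genes), 1 rose and 15 were not called. Differences were below 0 in 17, with a median of -0.26, and 10 genes had an unadjusted p under 0.05 (limma). Besides Slc2a1 the lower genes were Slc16a3, the lactate exporter MCT4, at -1.23 and Pfkp, a phosphofructokinase, at -0.71 (adjusted p = 0.0381 and 0.0458). Pfkfb4, which tunes phosphofructokinase, rose by 0.39 (adjusted p = 0.00739). Hk2, a hexokinase, and Ldha, lactate dehydrogenase A, had -0.48 and -0.13 (adjusted p = 0.0538 and 0.272), and Hk2 was called without R tumor 2 or 5 or VdR tumor 4. The count of lower genes was 0 without R tumor 1 or 4 or VdR tumor 1, 2 or 5, 6 without R tumor 2 or 5, and 5 without VdR tumor 4. Vegfa, the endothelial growth factor induced by hypoxia, had -0.23 (adjusted p = 0.555).

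Genes of fatty acid oxidation and of the respiratory chain showed small differences. In the list of fatty acid oxidation, 6 of 23 genes rose (26.1%, against 6.58% of all genes) and none fell. Differences were above 0 in 21, and the median was 0.17. Acox3, a peroxisomal acyl-CoA oxidase, had 8.03, 8.15, 7.91 and 8.09 in R tumors and 8.37, 8.54, 8.69 and 8.40 in VdR tumors. Its groups did not overlap, and the log2 difference was 0.45 (SE 0.08, adjusted p = 0.00477). Cpt1c, a carnitine palmitoyltransferase of the endoplasmic reticulum, and Hadhb, a subunit of the trifunctional protein, stood 0.38 and 0.38 higher (adjusted p = 0.00312 and 0.012). The difference was 0.34 for Cpt1a, the enzyme that loads fatty acids onto carnitine (adjusted p = 0.297). The number of higher genes was 3 without R tumor 1 or VdR tumor 2, and 4 with arrays centred on their medians. Of 40 respiratory chain and ATP synthase genes 4 rose, or 10.0% against 6.58% of all genes, and none fell, with a median of 0.097, but 2 rose without R tumor 1, 2 or 4 or VdR tumor 1 and 1 without VdR tumor 2 or with centred arrays. Uqcrc1, a core subunit of complex III, was among them at 0.25 (adjusted p = 0.00872).

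No enzyme of coenzyme A synthesis was called. In the list of 21 such enzymes and vanins, Vnn1 was the only called gene, and the median was 0.096. Ado and Cdo1, dioxygenases that turn cysteamine and cysteine towards taurine, had 0.15 and 0.23 (adjusted p = 0.118 and 0.269). Of 9 genes of cholesterol efflux 3 rose (33.3%, against 6.58% of all genes). They were the transporter gene Abca1 at 0.65, the phospholipid transfer gene Pltp at 0.90 and Apoe (adjusted p = 0.0105, 0.00285 and 0.00146). Of these, Apoe is also strongly expressed by macrophages. Of 20 genes of cholesterol synthesis and uptake, Hmgcs1, which makes HMG-CoA, fell (log2 difference -0.37, adjusted p = 0.0389), a call lost in 6 of 8 fits without 1 tumor, with R tumor 2 and VdR tumor 1 as the exceptions, at adjusted p up to 0.0947.

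Thiol genes were called in both directions, with the share of higher genes near that of all genes. Of 24 glutathione and NRF2 target genes 4 fell (16.7%, against 2.81% of all genes). Another 2 rose (8.33%, against 6.58%), and the list median was -0.024. Slc7a11, the cystine importer that feeds glutathione synthesis, had 9.18, 8.31, 9.94 and 8.82 in R tumors and 7.67, 7.80, 7.69 and 7.82 in VdR tumors. The groups did not overlap, since R tumor 2 at its lowest still exceeded every VdR tumor, and the log2 difference was -1.32 (SE 0.25, adjusted p = 0.00647). Nqo1, a quinone reductase induced by NRF2, had 8.94, 8.15, 9.15 and 9.15 in R tumors and 8.13, 8.10, 8.27 and 8.21 in VdR tumors. R tumor 2 overlapped the VdR tumors here, and the difference of -0.67 (SE 0.18, adjusted p = 0.0364) was called without R tumor 2 but in no other fit that left out 1 tumor, at adjusted p up to 0.111. Gclm, the modifier subunit of glutamate-cysteine ligase, and Txnrd1, thioredoxin reductase, had -0.38 and -0.18 (adjusted p = 0.0453 and 0.0434), both lost without R tumor 1 or 4 or any VdR tumor, and Txnrd1 also without R tumor 2, at adjusted p up to 0.134. The number of lower genes of the list was 1 without R tumor 1 or 4 or VdR tumor 1, 2 or 4 and 2 without VdR tumor 5. Gstt1, a glutathione transferase, rose by 0.41 (adjusted p = 0.00578). The p53 target gene Sesn1, a sestrin, rose by 0.73, and Phgdh, the first enzyme of serine synthesis, by 0.61 (adjusted p = 0.00072 and 0.00213).

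Some genes that mark position and lineage were called, most of them lower in VdR tumors. Of 28 Hox genes, which record where in the body a mesenchymal cell comes from, 27 had a difference below 0, 6 fell (2.81% of all genes did) and none rose, with a median of -0.17. Hoxd10 had 7.43, 9.41, 8.81 and 7.33 in R tumors and 6.28, 6.34, 6.21 and 6.12 in VdR tumors. Hoxc10 had 6.10, 7.31, 7.55 and 6.0 in R tumors and 5.61, 5.41, 5.44 and 5.45 in VdR tumors. In both genes R tumors 2 and 4 were far above R tumors 1 and 5, while the VdR tumors lay close together and below all R tumors. The log2 differences were -2.01 (SE 0.37, adjusted p = 0.00481) and -1.26 (SE 0.29, adjusted p = 0.0157). Values of Hoxc10 in VdR tumors were near the filter value of 5.38. Hoxc6 and Hoxc9 fell as well, at -0.51 and -0.38 (adjusted p = 0.0074 and 0.00799).

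Tbx20, a T-box factor of heart and vessel development, had 7.01, 8.94, 7.11 and 8.94 in R tumors and 10.28, 10.22, 9.78 and 10.24 in VdR tumors. R tumors formed 2 levels, with tumors 1 and 4 low and tumors 2 and 5 higher, and all VdR tumors lay above them, with a log2 difference of 2.13 (SE 0.39, adjusted p = 0.00514). Tbx3, a T-box repressor, fell (log2 difference -0.93, adjusted p = 0.00514). Of 30 mesenchymal transcription factor genes, Tbx20 was the only one that rose (3.33%, against 6.58% of all genes). Tbx3 and Prrx1 fell (6.67%, against 2.81%). Prrx1 had a log2 difference of -0.26 (adjusted p = 0.0476), and its call was lost in 7 of 8 fits without 1 tumor, with VdR tumor 1 as the exception, at adjusted p up to 0.12.

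Some adhesion and channel genes fell. Itga2, the collagen-binding α2 integrin, had 10.17, 9.42, 10.64 and 9.74 in R tumors and 8.57, 8.64, 8.82 and 8.88 in VdR tumors. Itgb3, the β3 integrin that binds vitronectin, had 10.03, 9.34, 10.30 and 9.77 in R tumors and 8.38, 8.49, 8.91 and 8.75 in VdR tumors. Neither overlapped between groups, and the log2 differences were -1.27 (SE 0.22, adjusted p = 0.00369) and -1.23 (SE 0.20, adjusted p = 0.0026). Of 22 integrin genes these were the 2 that fell (9.09%, against 2.81% of all genes), and 4 rose (18.2%, against 6.58%). Among the higher ones were Itgam, its partner Itgb2 at 0.80 and the leukocyte integrin gene Itga4 at 1.08 (adjusted p = 0.000335 and 0.002). Without R tumor 2 or VdR tumor 4, 4 integrin genes fell.

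Kcnq5, a voltage-gated potassium channel gene, had 8.89, 9.0, 8.86 and 8.86 in R tumors and 6.51, 6.56, 6.57 and 6.60 in VdR tumors. The spread within each group was small beside the log2 difference of -2.34 (SE 0.28, adjusted p = 0.000334). Cacna1h, a T-type calcium channel gene, had 8.81, 7.80, 9.14 and 8.99 in R tumors and 7.16, 6.74, 7.38 and 7.38 in VdR tumors. All VdR tumors lay below all R tumors, with a log2 difference of -1.52 (SE 0.25, adjusted p = 0.00264). Of 31 potassium and chloride channel genes tested, 2 fell, Kcnq5 and Ano1 (6.45%, against 2.81% of all genes), and 1 rose (3.23%, against 6.58%). Of 26 sodium and calcium channel and calcium handling genes 6 rose (23.1%) and 3 fell (11.5%). The count of higher genes was 3 without R tumor 1, and that of lower genes 1 without R tumor 4 or VdR tumor 2. The L-type calcium channel gene Cacna1d and the cation channel gene Trpv2 were among the higher genes at 0.63 and 0.59 (adjusted p = 0.00038 and 0.00105).

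Some growth factor genes of the tumor and stroma were called, while most members of their families were not. Bmp2, a bone morphogenetic protein, had 10.71, 9.40, 11.23 and 9.72 in R tumors and 8.33, 8.39, 9.38 and 8.38 in VdR tumors. Its groups met without overlapping, since VdR tumor 4 reached 9.38 and R tumor 2 lay at 9.40, and the log2 difference of -1.64 (SE 0.39, adjusted p = 0.021) was lost without R tumor 1 or 4 or VdR tumor 1 or 2, at adjusted p up to 0.0667. Fst, the activin and BMP antagonist follistatin, and Inhba, an activin chain, fell, with log2 differences of -1.06 and -0.66 (adjusted p = 0.004 and 0.00166). Of 25 BMP pathway genes Bmp2 and Fst were the 2 called, or 8% lower against 2.81% of all genes. The ErbB ligand genes Btc and Nrg1 fell, at -0.74 and -0.52, as 2 of 12 EGF family genes (adjusted p = 0.00377 and 0.000185). That is 16.7%, against 2.81% of all genes, and 10 of the 12 differences were below 0. Without R tumor 2, 4 EGF family genes fell. Of 28 Wnt ligand, inhibitor and target genes 4 rose (14.3%, against 6.58% of all genes) and 2 fell (7.14%, against 2.81%). Only 2 rose without R tumor 1 or 4. Lef1, a nuclear effector of Wnt signalling, fell, at -0.82, while the Wnt target gene Axin2 rose by 0.47 (adjusted p = 0.00563 and 0.000825). Hgf, hepatocyte growth factor, had -0.83 and Igf1, insulin-like growth factor 1, had 1.0 (adjusted p = 0.0164 and 0.0196), both called, and both lost without R tumor 1 or 4, Igf1 also without VdR tumor 1 or 2, at adjusted p up to 0.0671. The guidance cue genes Ntn1 and Slit2 moved apart, Ntn1 at 0.90 and Slit2 at -0.83 (adjusted p = 0.00467 and 0.00146). Nr4a2, an immediate early nuclear receptor gene, fell (log2 difference -0.94, adjusted p = 0.00184).

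A few matrix glycoprotein genes rose, and no collagen gene was called. Efemp1, the fibulin 3 gene, had 10.20, 10.11, 9.96 and 10.30 in R tumors and 11.80, 11.61, 11.15 and 11.35 in VdR tumors. Dpt, the dermatopontin gene, had 9.55, 9.57, 8.83 and 8.72 in R tumors and 10.81, 11.06, 10.18 and 10.31 in VdR tumors. Both were separated between groups, with log2 differences that came to 1.34 (SE 0.12, adjusted p = 9.34e-05) and 1.42 (SE 0.28, adjusted p = 0.0072). Of 23 matrix glycoprotein and elastic fiber genes 5 rose (21.7%, against 6.58% of all genes) and 1 fell (4.35%, against 2.81%). In each fit without 1 tumor 4 or 5 rose. The higher genes included Fbln1 and Mfap2 at 0.91 and 0.63 (adjusted p = 0.00467 and 0.00889). The list median was 0.051, and was -0.021 with arrays centred on the genes with 1 symbol. None of 29 collagen genes was called (limma), with a median of 0.11. An unadjusted p under 0.05 was found in 9 of them, against 3836 of all 16573 genes. However, 4 collagen genes, Col1a1 among them, were called higher without VdR tumor 5 and 1 was called lower without R tumor 2. Col1a1, the main chain of collagen 1, had 12.72, 12.68, 12.44 and 12.26 in R tumors and 12.85, 12.86, 13.02 and 12.58 in VdR tumors. The groups overlapped, with a log2 difference of 0.31 (SE 0.11, adjusted p = 0.107). Col3a1 and the caveolin gene Cav1 had 0.22 and 0.20 (adjusted p = 0.167 and 0.352). Of 21 smooth muscle and myofibroblast contractile genes, Cald1, the caldesmon gene, was the only called one at -0.30 (adjusted p = 0.0303), lost without R tumor 1 or 4 or VdR tumor 1, 2 or 4, at adjusted p up to 0.0818.

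**Figure D4:**
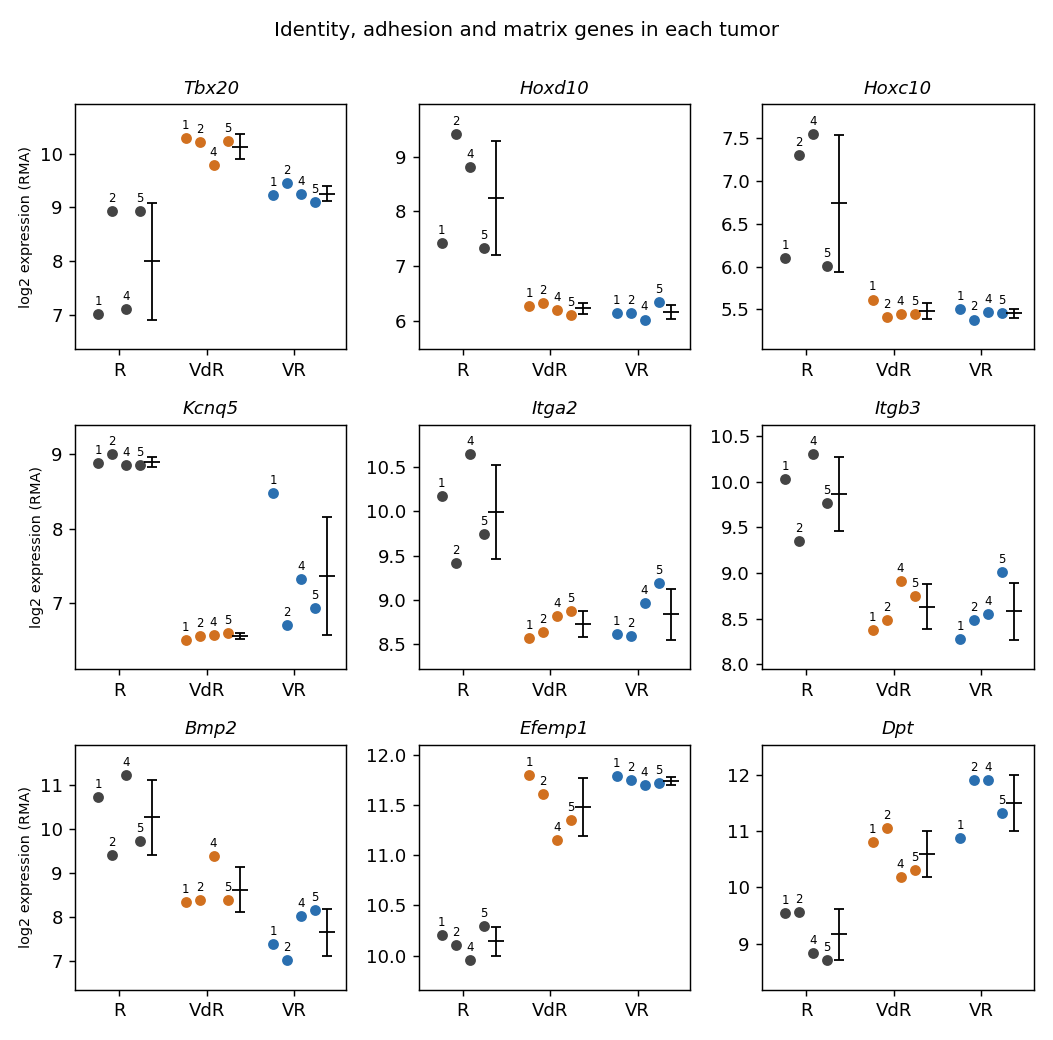
Log2 expression (vertical axis) of 9 genes of lineage, channels, adhesion, signalling and matrix in each R, VdR and VR tumor, labelled by tumor number, with the group mean and SD (n = 4). VdR tumors lie above all R tumors in Tbx20, Efemp1 and Dpt and below them in the other 6 genes, and the R tumors of Hoxd10 run from 7.33 to 9.41.

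Lists of growth genes held few calls. Of 27 genes of DNA replication and mitosis none was called (limma), with a median of 0.14. An unadjusted p under 0.05 was found in 5 of them, against 3836 of all 16573 genes. Of this list 8 genes were called higher without R tumor 5 and 1 without VdR tumor 4. Mki67, a marker of cycling cells, had 10.51, 10.69, 10.16 and 11.04 in R tumors and 10.96, 11.10, 10.40 and 10.77 in VdR tumors, and the groups overlapped (log2 difference 0.21, SE 0.17, adjusted p = 0.527). Of 21 Ras-ERK feedback and output genes 1 was called, Phlda1 at -0.44 (adjusted p = 0.0222), and none was without R tumor 1 or 4 or VdR tumor 1, 2 or 4, while 4 were lower without R tumor 2. None of 30 cytosolic ribosomal protein genes was called (limma; 3 had an unadjusted p under 0.05), with a median of 0.014.

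VR tumors, with intact Vnn1, were compared with VdR tumors for the same genes. Between VR and VdR tumors 570 of 16573 genes were called, or 3.44%, with 293 higher in VR (1.77%) and 277 lower (1.67%). The number was 151, 86 and 260 without VR tumor 2, 4 or 5, and 298, 171 and 205 without VdR tumor 1, 4 or 5. Whether the calls of single genes between VR and VdR tumors given here hold in these fits is not reported. This comparison and that of VdR with R share the VdR tumors, so a gene that happened to lie off in VdR tumors appears in both with opposite sign. Of the 18 macrophage markers none was called between VR and VdR tumors, and the median log2 difference was -0.16. Nor was any of the 24 hypoxia genes, with a median of -0.19. Vnn1 itself stood lower in VR tumors, at a log2 difference from VdR of -0.69 (adjusted p = 0.0292).

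Ano1, a calcium-activated chloride channel gene, was lowest in VdR tumors, with 9.89, 9.14, 10.20 and 10.17 in R tumors, 7.17, 7.43, 7.11 and 7.27 in VdR tumors and 8.85, 8.11, 8.36 and 8.43 in VR tumors. No group overlapped another, and the log2 difference was -2.61 (SE 0.21, adjusted p = 6.45e-05) for VdR minus R and 1.19 (adjusted p = 0.017) for VR minus VdR. Cdh11, a cadherin of mesenchymal cells, had 9.60, 9.23, 9.26 and 9.60 in R tumors, 8.31, 8.80, 8.50 and 7.68 in VdR tumors and 10.41, 9.64, 9.63 and 10.03 in VR tumors. VdR tumors were again below both other groups, by -1.10 (adjusted p = 0.00889) against R and with VR higher by 1.61 (adjusted p = 0.00792). Gal3st3, a sulfotransferase gene, Pdgfd, a ligand of the PDGF β receptor, Thbs2, the matrix protein thrombospondin 2, and Rgs5 also had their lowest mean in VdR tumors, with 1 VR tumor of Rgs5 inside the VdR range. Their log2 differences of VR minus VdR were 1.28, 1.01, 0.71 and 0.55 (adjusted p = 0.0122, 0.0126, 0.0195 and 0.0353). Those of VdR minus R were -1.33, -0.88, -0.90 and -0.95 (adjusted p = 0.00172, 0.00514, 0.00146 and 0.000606).

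Aldh1a2, which makes retinoic acid, was highest in VdR tumors, with 7.83, 8.88, 9.67 and 8.67 in R tumors, 9.70, 10.05, 9.98 and 10.25 in VdR tumors and 7.69, 8.13, 8.70 and 8.60 in VR tumors. The VdR tumors were above both other groups, by 1.23 against R (SE 0.32, adjusted p = 0.0312) and with VR lower at -1.72 (adjusted p = 0.0192). Against R the call was lost without R tumor 1 or 5 or VdR tumor 2, 4 or 5, at adjusted p up to 0.0814. Sfrp2, a secreted modulator of Wnt signalling, had 10.40, 10.34, 10.14 and 10.18 in R tumors, 11.94, 12.37, 11.94 and 11.79 in VdR tumors and 11.04, 11.53, 11.03 and 10.87 in VR tumors. R tumors were lowest, VR tumors between and VdR tumors highest with no overlap, with 1.74 for VdR minus R (SE 0.14, adjusted p = 6.45e-05) and -0.89 for VR minus VdR (adjusted p = 0.0126).

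Cldn1, the tight junction protein claudin 1, rose in steps, with 6.91, 7.47, 5.97 and 6.45 in R tumors, 8.81, 8.88, 7.85 and 8.17 in VdR tumors and 9.90, 10.27, 10.06 and 9.88 in VR tumors. All 3 groups were separated, VdR minus R at 1.73 (SE 0.29, adjusted p = 0.00312) and VR minus VdR at 1.60 (adjusted p = 0.0181). Clec12a, an inhibitory lectin of myeloid cells, rose by 1.30 from R to VdR (adjusted p = 0.00323) and was higher in VR by a further 0.96 (adjusted p = 0.0374). Ncr1 was called between VR and VdR tumors at 0.96 (adjusted p = 0.00465). For Kcnq5, with 8.49, 6.71, 7.33 and 6.94 in VR tumors, the difference of 0.80 between VR and VdR did not pass (adjusted p = 0.132), and the VR tumors spread over more than 1 log2 unit.

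**Figure D5:**
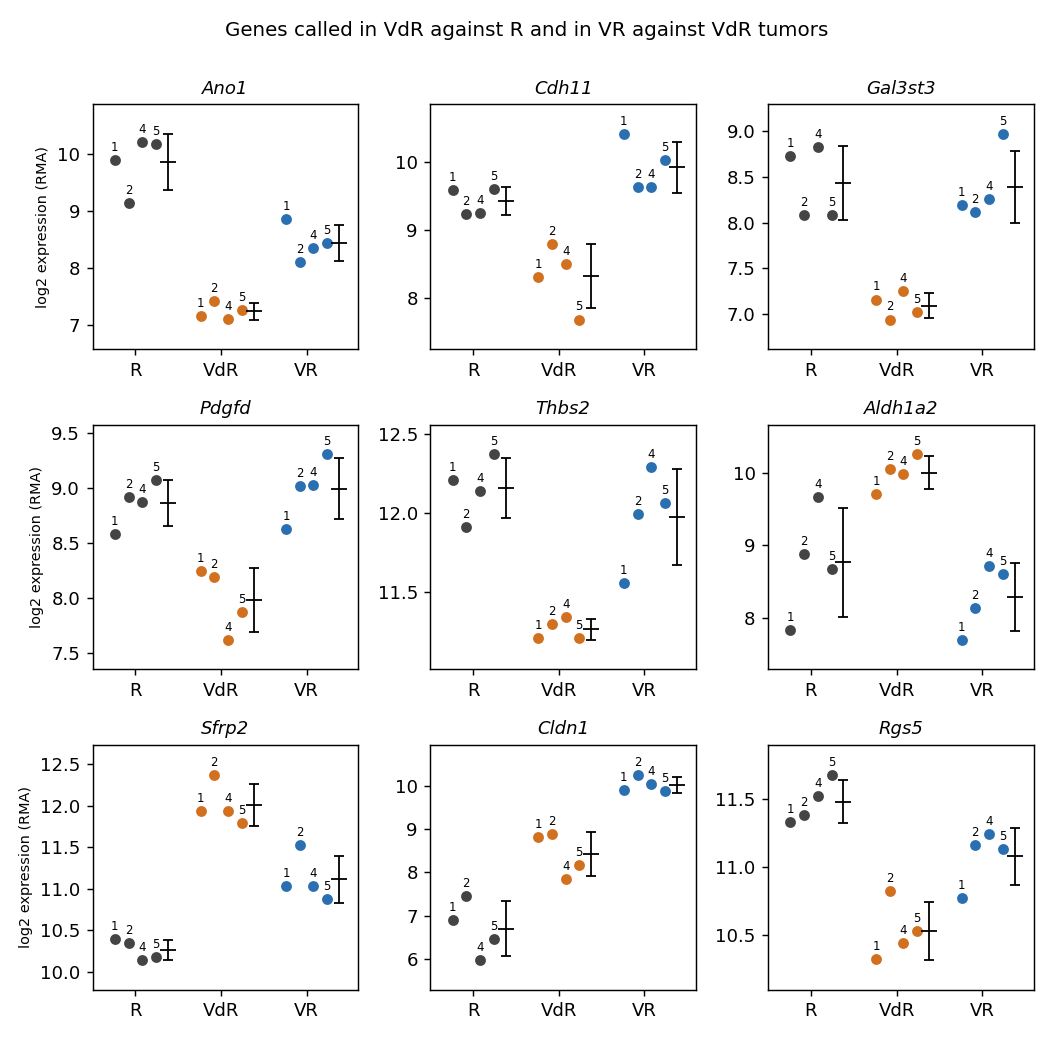
Log2 expression (vertical axis) of 9 genes that were called both between VdR and R and between VR and VdR tumors, in each tumor labelled by its number, with the group mean and SD (n = 4). The mean of VdR tumors is the lowest in Ano1, Cdh11, Gal3st3, Pdgfd, Thbs2 and Rgs5, the highest in Aldh1a2 and Sfrp2, and between the others for Cldn1.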

How the data were processed

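RNA of 12 J2A tumors was hybridised to Affymetrix mouse gene arrays. The authors normalized the arrays by RMA in oligo (named in the submitters' processing notes without versions) and deposited log2 expression for each probeset. RMA gives all arrays one distribution, which hides a change in total RNA. No batch or scan date was given in the sources used here, no scanner file was used, and the number of arrays limits the precision.

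Groups and tumor numbers came from the sample titles. Of 35556 probesets, 21789 had 1 gene symbol, 1621 several and 12146 none, and symbols follow the platform annotation. The probeset with the highest mean stood for each of 19938 genes. A gene entered the test (16573 did) if 4 or more arrays exceeded 5.38, the 25th percentile of the whole table. VdR minus R and VR minus VdR were fitted over all 12 arrays with limma 3.58.1 in R 4.3.3, with Benjamini-Hochberg adjustment over all tested genes and a threshold of 0.05.

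The comparison, the 70 gene lists and the genes named were chosen with earlier results of these data known. Of 1356 list symbols, 1260 matched the array. The rule for named genes took the 15 largest called differences in each direction where the groups were fully separated, the 4 best-ranked members of every list by adjusted p, each list's largest difference against its direction, the first marker of each cell type, genotype checks and the genes of the study's qRT-PCR. Mrc1, Cd163, Fcer1g, Clec12a, Tlr13, Tlr2, Cybb, Lyve1, Il34, Ccl7, Ccr2, C5ar1, C3ar1, Irf7, Ifi35, Prrx1, Ldha, Vegfa, Cpt1a, Gclm, Txnrd1, Cdo1, Mki67, Col3a1 and Mfap2 were added after their values were seen. Not every gene that the rule took is described above. Among those left out are genes with the largest difference against their list. These include Ccl3 (-0.71), Ly96 (-0.41), Ptgs2 (-0.35), Ctsl (-0.25) and Angptl4 (0.42), none of them called. Lists are described by counts and medians, without a test.

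The fit was tested on simulated data for VdR versus R with 16573 genes, 50 of which were changed at each size. It found 44 of the genes changed 1.5-fold, 48 of those changed 2-fold, 49 at 3-fold and 50 at 4-fold, with 18 false among 209 calls. As alternatives the filter was dropped or tightened, probesets were averaged, limma was run with trend and robust settings or with array weights, arrays were scaled by cyclic loess or by their medians, the tumor number entered as a block, the 8 arrays were fitted alone, a 1.5-fold minimum was set, the t-test that the methods name for qRT-PCR was used, and each tumor was left out in turn. Centring on the median of genes with 1 symbol was added after the data were seen. Promoter windows came from RefSeq (GRCm38.p6).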

Additional observations from a re-analysis of the deposited data

Results flagged for a closer look

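In 2 of the 76 groups of 4 tumors whose values are printed for R and VdR, 1 tumor stood apart from the other 3 by Dixon's ratio. Chance flags about 1 in 20 groups. VdR tumor 4 had a log2 value of 9.38 for Bmp2, against 8.33 to 8.39 in the other VdR tumors. The same tumor had 9.78 for Tbx20, against 10.22 to 10.28 in the others, and was also the highest VdR tumor for Bnip3, Slc2a1 and Car9.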

How the results depend on the processing

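The call of Vnn1 held under all alternatives. With array weights 2595 genes were called between VdR and R tumors, 1757 higher and 838 lower, and 884 between VR and VdR tumors. By the methods' t-test with Benjamini-Hochberg adjustment the counts were 493, 391, 102 and 30 in that order, and with a minimum change of 1.5-fold 496, 378, 118 and 125. Centring on the median of genes with 1 symbol, chosen after the data were seen, left 702 higher and 997 lower in VdR tumors, whereas centring on the median of all probesets left 810 and 443 and cyclic loess 862 and 689. Leaving out each tumor in turn gave 961 to 1775 called genes, 684 to 1283 higher and 248 to 530 lower in VdR than in R tumors, and 86 to 554 between VR and VdR tumors. Fitting the 8 arrays alone left 1203 called, 885 higher and 318 lower. Among the named genes no difference changed sign under any alternative, a call was lost in 248 and gained in 31 combinations of gene and alternative. The tumor numbers are shared between groups but nothing in the labels says what they mark. Same-numbered VdR and R tumors deviated from their group means with correlations of 0.15, 0.36, 0.10 and 0.099. Different-numbered VdR and R tumors had correlations from -0.48 to 0.23. These values do not settle whether the numbers pair the tumors, and the main fit did not use the numbers as pairs. With the replicate number as a block, 1654 genes were called between VdR and R tumors, 1121 higher and 533 lower, and 621 between VR and VdR tumors. Among the genes of the text Ccr2, Ifi35, Prrx1 and Txnrd1 were not called between VdR and R tumors with this block, and Car9 and Ncr1 were. RMA values carry no depth, and genes near the filter value, such as Hoxc10 or Ncr1, are measured on one side only.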
